A study of Mus musculus with 16 samples.

Results

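The 9 genes described here were the bone morphogenetic protein (BMP) antagonists Grem1, Nog, Chrdl1, Fst and Fstl1 and the BMP ligands Bmp2, Bmp4, Bmp6 and Gdf5. They were taken by symbol from the 49568 genes of a count table of mouse flexor tendon, in which all 9 were found. Grem1 was chosen by its level in these uninjured tendons, which differed between the strains, so its values there are a description and carry no test. The others were listed for their place in the BMP pathway. RNA was sequenced from 16 tendons of male mice aged 9 to 11 weeks per the study's methods, with 4 libraries in each group. The groups were tendons of C57BL/6J (C57) and of MRL/MpJ (MRL) mice, either uninjured or taken 7 days after injury (7 dpi). Uninjured libraries are replicates 1 to 4 of their strain, and injured libraries carry the names in their labels, which are BI-181, BI-183, BI-184 plus BI-185 in C57 and BI-270, BI-272, BI-274 plus BI-275 in MRL. Values of single libraries are given in this order throughout. C57 is a common inbred laboratory strain and MRL is an inbred strain known for healing several tissues with little scar. The injury was a cut through 50% of the width of the deep digital flexor tendon of digit 3 of the hind paw. The labels and methods name no transgene or deletion in any group. Per the methods, injured mice were operated on under ketamine and xylazine and were given buprenorphine for pain, which cannot be told apart from injury here. Each library came from bulk tissue, from which fewer cells of a type and less RNA per cell cannot be told apart, and the sheath and other tissue around the tendon could enter a library. The question put to these genes was how their levels compare between injured and uninjured tendon of each strain and between the strains.

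BMPs are secreted dimers of the TGF-beta superfamily. They bind paired type I and type II receptor kinases, which phosphorylate SMAD1, SMAD5 and SMAD9, and these move with SMAD4 to the nucleus and switch on targets such as the Id genes. Antagonists such as gremlin 1 and noggin bind BMPs outside the cell and keep them from their receptors, while follistatin mainly binds activins. In connective tissue BMPs are known for driving cartilage and bone formation, and GDF5 is known for joint and tendon development.

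RefSeq promoters were given for 4 of the 9 genes, Grem1, Fstl1, Bmp4 and Bmp6, and not for Nog, Chrdl1, Fst, Bmp2 and Gdf5. They are shown for Grem1, which was picked for its strain difference, and for Fstl1 and Bmp4, which passed the test after injury in MRL. Each line holds the 250 bases before the gene start in RefSeq (GRCm38.p6), 5′ to 3′ on the gene's strand, at chr2:113758649-113758898 (minus strand) for Grem1, chr16:37776805-37777054 (plus strand) for Fstl1 and chr14:46390670-46390919 (minus strand) for Bmp4. Capitals mark GGGCGG, the core of the GC box, and GGCGCC, a run that BMP SMADs can bind.
Grem1: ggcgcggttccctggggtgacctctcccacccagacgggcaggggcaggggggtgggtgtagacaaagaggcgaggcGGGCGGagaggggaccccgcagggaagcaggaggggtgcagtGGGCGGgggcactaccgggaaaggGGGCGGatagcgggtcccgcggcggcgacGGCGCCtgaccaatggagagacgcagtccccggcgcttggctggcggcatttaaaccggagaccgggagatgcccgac
Fstl1: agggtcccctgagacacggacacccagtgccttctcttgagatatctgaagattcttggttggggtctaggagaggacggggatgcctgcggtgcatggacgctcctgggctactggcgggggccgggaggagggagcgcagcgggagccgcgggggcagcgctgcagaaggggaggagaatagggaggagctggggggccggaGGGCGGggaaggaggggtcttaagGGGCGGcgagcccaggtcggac
Bmp4: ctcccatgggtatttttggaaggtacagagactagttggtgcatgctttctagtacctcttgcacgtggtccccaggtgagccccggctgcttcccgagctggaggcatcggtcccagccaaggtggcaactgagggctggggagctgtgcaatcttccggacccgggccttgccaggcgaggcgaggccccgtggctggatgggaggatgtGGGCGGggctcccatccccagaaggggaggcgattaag
Both strands were searched (GGGCGG or CCGCCC, and GGCGCC, which reads the same on both). Of the 3 promoters, GGCGCC was found only in that of Grem1, where it began 78 bases before the start, and 9.59% of 32851 RefSeq promoters of the same length hold it. GGGCGG began 173, 131 and 107 bases before the start of Grem1, 46 and 22 bases before that of Fstl1 and 38 bases before that of Bmp4, and 32.7% of promoters hold it. GENCODE places the start of Fstl1 at 37776873, within the printed bases, so both of its sites lie inside the gene as annotated there. CCAAT, searched also as ATTGG, began 69 bases before the start of Grem1 and was not found in the other two, against 33.8% of promoters. TATAAA, searched also as TTTATA, was found in none of the 3 promoters, against 12.4%. The GC content was 72% for Grem1, 68% for Fstl1 and 63.2% for Bmp4. The reference is that of C57, and the MRL sequence was not analysed here.

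The libraries held between 12552424 and 23741648 counts on genes, and the injured MRL libraries were the deepest, with at least 18524170. Tenocyte markers were present as a set throughout, with a summed level of 16859 to 74780 CPM (counts scaled to a common library size) for the 10 markers. Of these, Kera was at 0 in C57 uninjured replicate 1 and Tnc was at 0 in C57 uninjured replicates 3 and 4. In C57 uninjured replicate 4 the 12 epidermis markers took 7.49% of counts, against at most 0.0779% in any other library. In BI-181 the 12 skeletal muscle markers took 7.72%, against at most 0.242% elsewhere. MRL uninjured replicate 4 was nearest to C57 uninjured replicate 2 (Spearman's rho 0.964 across genes) rather than to its own group (0.932 to 0.941). Calls that change without these 3 libraries are given both ways. The 8 macrophage markers summed to 708 to 1454 CPM in uninjured and 4353 to 7762 CPM in injured C57 tendon, and to 873 to 1453 CPM and 3398 to 6144 CPM in MRL. Their part in the injury responses below was not tested.

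After injury in MRL, 2 of the 7 genes that could be tested other than Grem1 passed the test. Fstl1 rose 2.42-fold and Bmp4 fell to 0.372 of its uninjured level. A gene passed with an adjusted p under 0.05 in edgeR's quasi-likelihood test and a change over 2-fold. Among all 14274 genes tested in MRL, 7.41% passed, 5.25% as higher and 2.15% as lower. DESeq2 called the same pair, among 11% of 16521 genes. After injury in C57, none of 6 tested genes passed (1.07% of 14424 genes did), while DESeq2 called 2 of them, Fst and Fstl1 (5.46% of 16563 genes). Without C57 uninjured replicate 4 and BI-181, 3 of them passed in edgeR, Fst, Fstl1 and Bmp4, as did 867 genes in all. Between injured MRL and injured C57 tendon none of 8 passed (3.43% of 14626 genes did), and DESeq2 called Bmp6 alone (8.48% of 17551 genes). Nog never had enough counts to be tested, and Gdf5 had enough in MRL, in the comparison of injured tendons and in the fit of all libraries. Each injury response shares its groups with both strain differences. The C57 and MRL injury responses have no library in common, nor do the strain differences with and without injury.

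**Figure D1:**
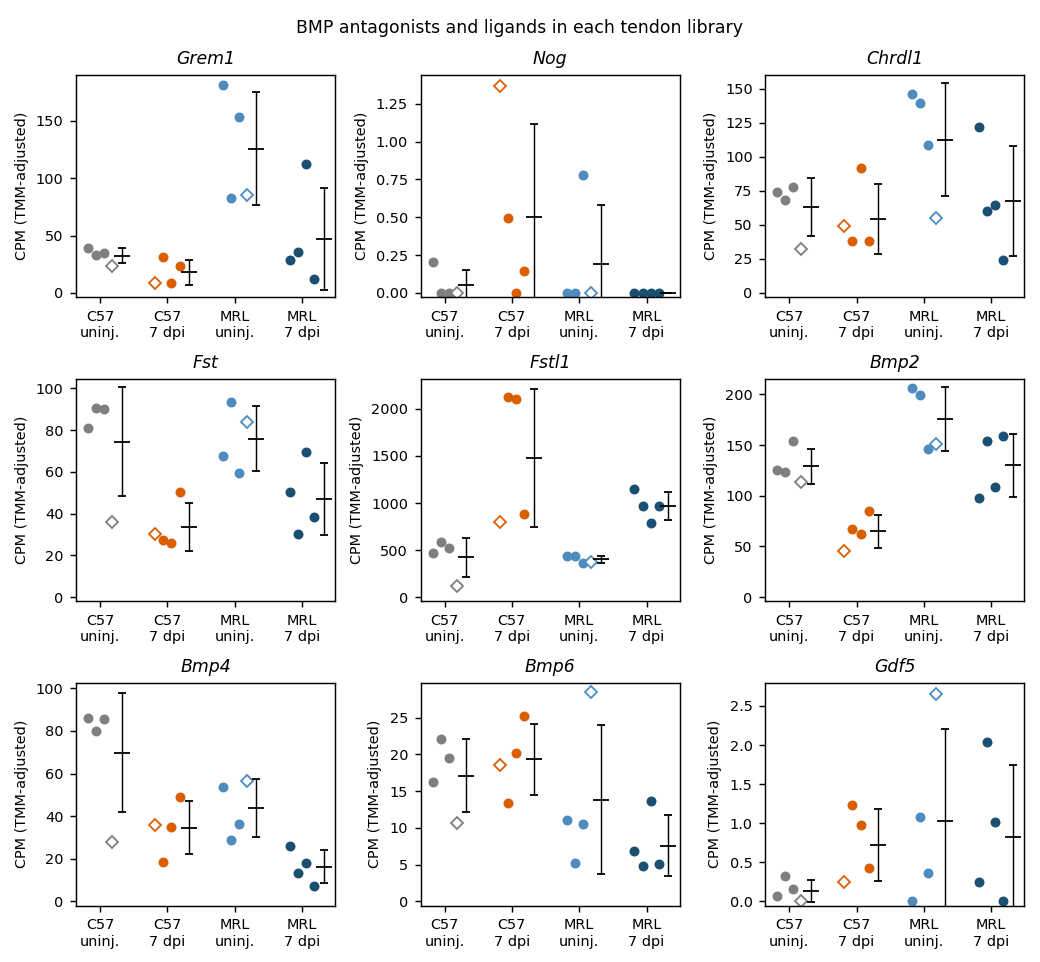
Level of each gene in the 16 libraries, in CPM on TMM-adjusted library sizes, with each panel on its own axis. Points are libraries, open diamonds are C57 uninjured replicate 4, BI-181 and MRL uninjured replicate 4, and bars are the mean ± SD of 4 libraries, cut just below 0. Grem1 is above 80 CPM in all 4 uninjured MRL libraries and below 40 CPM in all C57 libraries, Fstl1 is higher in every injured library than in the uninjured libraries of its strain, and Bmp4 is lowest in injured MRL tendon.

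Per kb of exon, which allows levels of different genes to be compared, Fstl1 was the most abundant of the 9 and Bmp2 came next in all 4 groups. The mean Fstl1 level was 86.4 CPM per kb in uninjured C57, 301 in injured C57, 81.9 in uninjured MRL and 197 in injured MRL. Fstl1 exceeded Bmp2 in every library but 1, C57 uninjured replicate 4. Bmp2 had means of 36.3, 18.3, 49.4 and 36.5 CPM per kb in the same order of groups. In both C57 groups Bmp4 followed, at 31.1 and 15.4 CPM per kb, but Bmp2 was above it in 2 of 4 uninjured and 3 of 4 injured libraries, so these neighbors did not separate in C57. In both MRL groups Grem1 stood in that place, at 30.3 and 11.4 CPM per kb. In uninjured MRL tendon it was above Bmp4 in 3 of 4 libraries, and in injured MRL tendon it was above Fst, the next gene, in 2 of 4. Grem1 ranked 6 of the 9 in uninjured C57 at 7.85 CPM per kb and 7 in injured C57 at 4.32 CPM per kb. Bmp6 stayed between 1.22 and 7.3 CPM per kb over all libraries. Gdf5 and Nog were the lowest in every group, with no library above 1.14 CPM per kb.

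**Figure D2:**
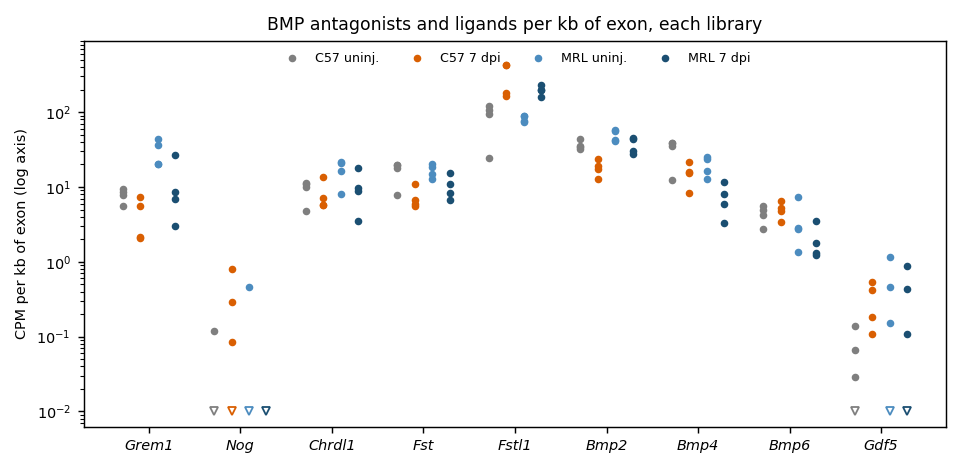
Level of each gene in CPM per kb of exon on a log axis, with 1 point per library and colors for the 4 groups. Open triangles at the bottom mark groups with at least 1 library at 0, which has no place on a log axis. Fstl1 is the highest and Nog and Gdf5 are the lowest in each group, and Grem1 is highest in uninjured MRL and lowest in injured C57.

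Grem1 (chr2:113746164-113758646, GRCm38, minus strand) encodes gremlin 1, a secreted antagonist of BMP2 and BMP4. In uninjured C57 tendon its level was 39.0, 32.8, 35.0 and 23.4 CPM in replicates 1 to 4, and in uninjured MRL tendon it was 181, 82.9, 153 and 85.3 CPM. The lowest MRL library was above the highest C57 library. The means were 32.6 ± 6.61 CPM and 126 ± 49.4 CPM (SD, n = 4 each), a log2 difference of 1.93 or 3.82-fold, which is the contrast that Grem1 was picked for. Every MRL library was above every C57 library for 3.07% of the 14055 genes tested in that contrast. The log2 difference was 1.96 without C57 and MRL uninjured replicates 4. The 6 cartilage markers moved with it, with a summed level of 121 to 247 CPM in uninjured C57 and 354 to 474 CPM in uninjured MRL. Of these, Matn3 and Col10a1 were at 0 in all uninjured C57 libraries, and Col10a1 was at 0 in MRL uninjured replicates 3 and 4. The 5 bone markers moved with it too, at 23.7 to 47.1 CPM in C57 and 78.9 to 230 CPM in MRL, with Sp7 or Dmp1 at 0 in each of these 8 libraries. Their part in the strain difference was not tested.

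At 7 dpi Grem1 was at 8.94, 30.9, 8.63 and 23.2 CPM in the C57 libraries, and at 28.7, 35.6, 112 and 12.4 CPM in the MRL libraries. BI-272 and BI-274 stood above every injured C57 library, and BI-270 and BI-275 lay within the injured C57 range. This comparison used none of the libraries that chose Grem1. Its log2 difference was 1.39 ± 0.66 (SE; 95% confidence interval -0.09 to 2.87; adjusted p = 0.264 over all genes tested), so a higher level in injured MRL tendon was not established, and it was 0.54 without BI-274. The mean was 17.9 ± 11 CPM in injured C57 and 47.3 ± 44.5 CPM in injured MRL. Against uninjured tendon of the same strain the log2 difference was -0.91 in C57 and -1.41 in MRL, both with overlapping groups and both given without a test, since they use the libraries that chose the gene. Without BI-274 the difference in MRL was -2.29. Cartilage markers summed to 59.8 to 118 CPM in injured C57 and 128 to 937 CPM in injured MRL. BI-275 had the highest of these sums and the lowest Grem1 of its group.

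Nog (chr11:89300638-89302332, minus strand) encodes noggin, a high-affinity antagonist of several BMPs. It was barely present. C57 uninjured replicate 1 had 3 counts and the other uninjured C57 libraries had 0, and the injured C57 libraries had 22, 8, 0 and 2 counts. MRL uninjured replicate 3 had 13 counts and the other 7 MRL libraries had 0. The highest value was 1.37 CPM, in BI-181, the library with 7.72% of its counts on muscle markers. A count of 0 allows up to 3 counts, or 0.126 to 0.241 CPM in these libraries by counting error alone, so low expression could not be told from absence.

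Chrdl1 (chrX:143285674-143394262, minus strand) encodes chordin-like 1, which binds BMP4 and other BMPs. It was at 74.4, 68.0, 77.6 and 32 CPM in uninjured C57 and at 146, 139, 109 and 54.9 CPM in uninjured MRL. The first 3 MRL libraries were above all C57 libraries, and MRL uninjured replicate 4 was not. The log2 difference of 0.82 ± 0.35 (SE) did not pass (adjusted p = 0.622). Without C57 and MRL uninjured replicates 4 it was 0.83 with an adjusted p of 0.00854, which is still under 2-fold. At 7 dpi Chrdl1 ranged from 38.2 to 91.8 CPM in C57 and from 24.1 to 122 CPM in MRL. The injury responses did not pass, with log2 differences of -0.26 ± 0.36 in C57 (adjusted p = 0.794) and -0.73 ± 0.43 in MRL (adjusted p = 0.303).

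Fst (chr13:114452290-114458951, minus strand) encodes follistatin, which neutralizes activins and, more weakly, some BMPs. It was at 81.2, 90.7, 90.2 and 35.9 CPM in uninjured C57 and at 30.4, 27.3, 25.8 and 50.5 CPM after injury. The groups overlapped through 1 library each, C57 uninjured replicate 4 and BI-185. The log2 difference was -1.20 ± 0.34 (SE), with an adjusted p of 0.15 by edgeR and 0.0476 by DESeq2. Without C57 uninjured replicate 4 it was -1.43 and passed in edgeR (adjusted p = 0.0128). In MRL the level was 67.4, 93.5, 59.3 and 83.7 CPM without injury and 50.3, 30.3, 69.5 and 38.1 CPM after injury, a log2 difference of -0.68 ± 0.26 that did not pass (adjusted p = 0.116). The means without injury were 74.5 ± 26.1 CPM in C57 and 76.0 ± 15.5 CPM in MRL (SD, n = 4 each), with a 95% confidence interval of the log2 difference from -0.63 to 0.66. Exons of Fst share 115 bases with the antisense gene Gm47040, whose reads could be counted for either.

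Fstl1 (chr16:37776873-37836514, plus strand) encodes follistatin-like 1, a secreted glycoprotein of mesenchymal cells that can bind BMP4. In MRL it was at 436, 436, 359 and 378 CPM without injury and at 1147, 973, 792 and 965 CPM after injury. Every injured library was above every uninjured one, as for 13.5% of the genes tested. Fstl1 rose with a log2 fold change of 1.28 ± 0.16 (SE; adjusted p = 0.00184), and it passed without each library in turn. A fit of all 16 libraries gave the same fold with an adjusted p of 0.0692. In C57 it was at 470, 587, 521 and 119 CPM without injury and at 803, 2125, 2109 and 888 CPM after injury. Again no injured library overlapped an uninjured one, as for 7.51% of genes. The log2 difference in C57 was larger and less precise, 1.76 ± 0.53 (SE), with an adjusted p of 0.170 by edgeR, 0.0141 by DESeq2 and 0.0119 by edgeR without C57 uninjured replicate 4 and BI-181. The difference between the injury responses did not pass the interaction test (-0.53 ± 0.56, adjusted p = 0.756), nor did injured MRL against injured C57 tendon (-0.63 ± 0.34, adjusted p = 0.314).

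Bmp2 (chr2:133552159-133562885, plus strand) encodes a ligand known for inducing bone and cartilage. In C57 it was at 126, 123, 154 and 114 CPM without injury and at 45.1, 66.8, 62.7 and 85.2 CPM after injury. The injured libraries were all below the uninjured ones, as for 4.19% of genes. The log2 difference was -1.04 ± 0.21 (SE) with an adjusted p of 0.0557, just above the threshold. It was -1.09 and passed without C57 uninjured replicate 4 (adjusted p = 0.0185). Without BI-181 it was -0.87, under 2-fold, and did not pass. Nor did Bmp2 pass with both of these libraries left out. DESeq2 gave -0.98 with an adjusted p of 0.00367, which is under 2-fold. In MRL, Bmp2 was at 207, 199, 146 and 151 CPM without injury and at 98.1, 154, 109 and 158 CPM after injury, and these groups overlapped (log2 difference -0.43 ± 0.20, adjusted p = 0.190). At 7 dpi every MRL library was above every C57 library, as for 8.05% of genes. That log2 difference was 0.98 ± 0.23, with an adjusted p of 0.0501. Without BI-270 it was 1.15 with an adjusted p of 0.0419, and without BI-181 it was 0.84 with 0.0863. The difference between the injury responses was 0.55 ± 0.30 and did not pass (adjusted p = 0.480).

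Bmp4 (chr14:46383520-46390669, minus strand) encodes a ligand close to BMP2 in sequence and receptors. It was at 86.2, 79.8, 85.7 and 27.9 CPM in uninjured C57, at 35.9, 18.5, 34.9 and 49.0 CPM in injured C57, at 53.7, 28.7, 36.4 and 56.6 CPM in uninjured MRL and at 25.9, 13.4, 18.1 and 7.36 CPM in injured MRL. In MRL all injured libraries were below the uninjured ones, as for 9.44% of genes. Bmp4 fell in MRL with a log2 fold change of -1.43 ± 0.37 (SE; adjusted p = 0.0336). The call was lost when MRL uninjured replicate 1, 3 or 4, BI-272 or BI-274 was left out, with adjusted p of 0.0525 to 0.0933 and log2 fold changes of -1.27 to -1.52. In C57 the log2 difference was -1.06 ± 0.40 (adjusted p = 0.261), and C57 uninjured replicate 4 was the only uninjured library within the injured range. Without it the log2 difference was -1.32 and passed (adjusted p = 0.0278). Between the strains without injury the log2 difference was -0.68 ± 0.36 (adjusted p = 0.662), and without both uninjured replicates 4 it was -1.09, lower in MRL, with an adjusted p of 0.0165. At 7 dpi it was -1.11 ± 0.40 (adjusted p = 0.154). Exons of Bmp4 share 89 bases with Gm15217 on the other strand.

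Bmp6 (chr13:38345107-38500302, plus strand) encodes a ligand best known for control of iron through hepcidin, and endothelium is a known source of it. It was at 18.6, 13.3, 20.2 and 25.2 CPM in injured C57 and at 6.90, 4.77, 13.6 and 5.07 CPM in injured MRL. The groups overlapped through BI-183 and BI-274. The log2 difference was -1.37 ± 0.39 (SE), lower in MRL, with an adjusted p of 0.0854 by edgeR, 0.0121 by DESeq2 and 0.0303 by edgeR without BI-274. The 6 endothelium markers were lower in injured MRL too. They summed to 92.5 to 151 CPM in injured C57 and 0.925 to 24.4 CPM in injured MRL. In BI-270 Cdh5, Kdr, Tek and Emcn were at 0. Without injury the 6 markers summed to 16 to 78.1 CPM in C57 and 1.86 to 66.3 CPM in MRL. They summed to 7.8 CPM in MRL uninjured replicate 4, the library with the highest Bmp6. The part of these markers in the difference was not tested. Without injury Bmp6 was at 16.3, 22.1, 19.5 and 10.7 CPM in C57 and at 11, 5.27, 10.6 and 28.5 CPM in MRL, and MRL uninjured replicate 4 was the highest of all 16. The log2 difference without injury was -0.32 ± 0.48 (adjusted p = 0.881), and -1.11 with an adjusted p of 0.0887 without both replicates 4. Injury gave log2 differences of 0.13 ± 0.30 in C57 (adjusted p = 0.889) and -0.86 ± 0.53 in MRL (adjusted p = 0.323). The latter was -0.21 without MRL uninjured replicate 4. Exons of Bmp6 share 224 bases with Txndc5 on the other strand.

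Gdf5 (chr2:155941023-155945367, minus strand) encodes a ligand of joints and tendons that signals mainly through BMPR1B. It had 1, 5, 2 and 0 counts in uninjured C57 and 4, 20, 15 and 6 in injured C57, and 0, 15, 6 and 33 counts in uninjured MRL and 6, 45, 23 and 0 in injured MRL. The counts reached 0 in 3 of the 4 groups, and no library exceeded 2.65 CPM. The log2 difference after injury in MRL was -0.30 ± 1.40 (SE; adjusted p = 0.915), with a 95% confidence interval from -3.39 to 2.80, so a change of several fold either way could not be seen. Of the 2320 bases of Gdf5 exons, 936 are shared with Gm15557 on the other strand.

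**Figure D3:**
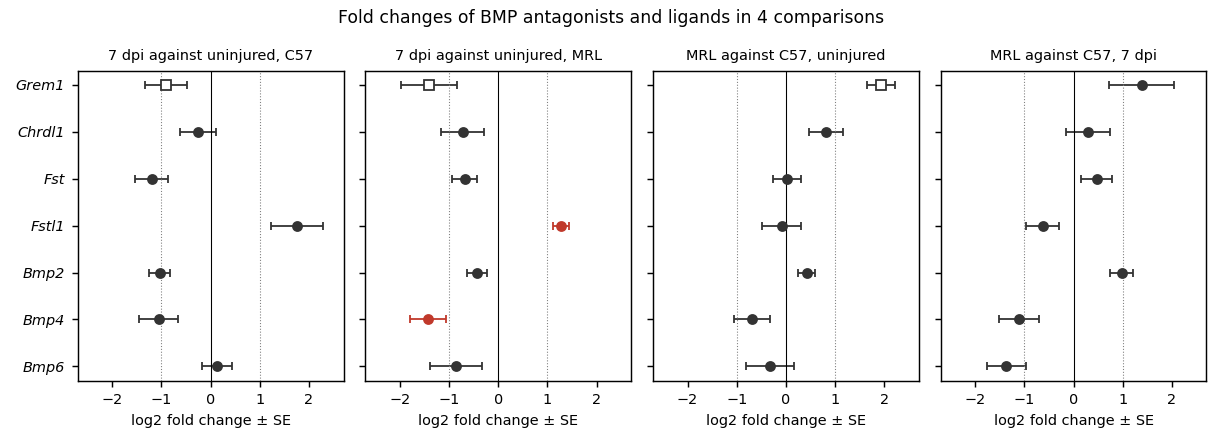
Log2 fold changes (± SE, from 4 against 4 libraries) of the 7 genes that were tested in all 4 comparisons of groups. Red points passed the test, dark points did not, open squares are Grem1 values given without a test, and dotted lines mark 2-fold. Fstl1 lies to the right and Bmp4 to the left of 0 after injury in both strains, and the red points are those of Fstl1 and Bmp4 in MRL.

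The injury responses of MRL and C57 were compared directly in 1 model of all 16 libraries. None of 15947 genes passed this interaction test with an adjusted p under 0.05, 1939 had an unadjusted p under 0.05, and DESeq2 called 212 genes (1.23%) and none of the genes described here. The 7 tested other than Grem1 had adjusted p of 0.480 to 0.827. In the uninjured strain comparison, likewise, 0 of 14055 genes passed in edgeR, 1106 had an unadjusted p under 0.05 and DESeq2 called 101 (0.629%), none of which was among the 6 tested here. Without both uninjured replicates 4, 497 genes passed in edgeR between the uninjured tendons, of which Bmp4 was the 1 gene among those tested here.

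Of the 59 other genes of the BMP pathway that were listed, 45 were tested in MRL, where 3 rose and 7 fell after injury (beside 5.25% and 2.15% of all genes), and 46 were tested in C57, where 1 rose and 0 fell (1.07% of all genes passed). In C57 the count was 7 by DESeq2, which called Gdf10, Gdf3 and Eng as higher and Bmp5, Inhbb, Bambi and Dlx5 as lower, and 13 in MRL, the 10 of edgeR with Inhbb, Rgma and Smad6 as lower. DESeq2 called 5.46% of all genes in C57 and 11% in MRL. Without the libraries that stood apart it was 5 in C57, with Eng higher and Inhbb, Bambi, Smad6 and Msx1 lower, and 10 in MRL, beside 867 and 909 of all genes. Leaving out 1 library at a time gave 6 to 10 calls in MRL and 0 to 7 in C57, beside 689 to 1260 and 10 to 750 of all genes. The median log2 fold change of those tested was -0.61 in MRL and -0.28 in C57, beside -0.03 and -0.05 for all genes tested. Among the ligands, Inhba, which encodes the activin A subunit that follistatin binds, rose in MRL from 108 ± 24.6 to 642 ± 668 CPM (SD, n = 4 each), a log2 fold change of 2.59 ± 0.62 (SE; adjusted p = 0.0272). The injured MRL libraries ranged from 204 to 1626 CPM and all were above the uninjured ones. Inhba was also higher in injured MRL than in injured C57 tendon, at 69.8 ± 37.0 CPM in C57, with a log2 difference of 3.17 ± 0.72 (adjusted p = 0.0423). That was the 1 gene of the list to pass between injured tendons in edgeR, and DESeq2 also called Sostdc1, a secreted BMP antagonist, as lower in MRL (adjusted p = 0.0479 by DESeq2 and 0.189 by edgeR). The difference of Inhba between injured tendons did not pass with no filter on low counts (adjusted p = 0.147). Nor did it pass in 6 of the 8 fits without 1 library, those without any 1 injured C57 library, BI-272 or BI-275. The rise of Inhba in MRL did not pass with no filter (adjusted p = 0.122) or without MRL uninjured replicate 1, 2 or 3. Without BI-275 the log2 fold change of Inhba was 1.55 after injury in MRL and the log2 difference between injured tendons was 2.21. Inhbb, which encodes the subunit of activin B, was at 75.0 ± 24.5 CPM in uninjured and 12.9 ± 10.8 CPM in injured MRL tendon. These groups did not overlap, and the log2 difference of -2.53 ± 0.75 did not pass in edgeR (adjusted p = 0.0590) but did in DESeq2 (adjusted p = 0.0241) and with all 16 libraries in 1 fit (adjusted p = 0.0305). In C57 Inhbb was at 41.9 ± 10.8 and 13.5 ± 5.15 CPM (-1.68 ± 0.35, adjusted p = 0.0598). Gdf3, a ligand of the same superfamily, had 0 counts in all 8 uninjured libraries and 35 to 90 counts in the injured MRL libraries. Their mean of 3.26 CPM was at least 13.5-fold higher than the uninjured level, taken at the highest limit that 3 counts per library set. In injured C57 tendon Gdf3 had 3 to 46 counts and was too low for the edgeR test of the 8 C57 libraries. It was called by DESeq2 (adjusted p = 0.00317) and with all 16 libraries in 1 fit (adjusted p = 0.0275), and was not called with no filter on low counts (adjusted p = 0.188). Bmp3 and Bmp5 fell in MRL, with log2 fold changes of -2.04 ± 0.58 (adjusted p = 0.0478) and -1.86 ± 0.51 (adjusted p = 0.0434). The call of Bmp3 was lost in 7 and that of Bmp5 in 6 of the 8 fits without 1 library.

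The antagonist Fstl3, which like follistatin binds activins, rose in MRL from 5.11 ± 0.931 to 12.8 ± 2.36 CPM, with a log2 fold change of 1.33 ± 0.31 (adjusted p = 0.0229), while it was at 9.37 ± 1.61 and 9.78 ± 3.55 CPM in uninjured and injured C57 (adjusted p = 0.992). The test of that difference did not pass (1.27 ± 0.45, adjusted p = 0.344), and the rise in MRL was lost without MRL uninjured replicate 1 or 3 or BI-272. Chrd, which encodes the antagonist chordin, was just under 2-fold lower after injury in MRL (log2 difference -0.99, adjusted p = 0.0400) and passed with upper-quartile scaling and with at least 10 counts in every library. None of the 7 receptors and none of the 8 SMAD and SMURF genes passed in any comparison, although Smad6, an inhibitory SMAD, passed as lower after injury in each strain under some of the alternatives. Bambi, a pseudoreceptor that blocks the signal and is itself a BMP target, fell in MRL from 222 ± 26.9 to 59.1 ± 15.8 CPM (log2 fold change -1.90 ± 0.20, adjusted p = 0.00106). In C57 Bambi was at 124 ± 28.6 and 46.3 ± 25.5 CPM with no overlap of the groups, and did not pass in edgeR (-1.47 ± 0.37, adjusted p = 0.112) but did in DESeq2 (adjusted p = 0.0173). Eng, a coreceptor of endothelium, was the gene that rose in C57, from 17.2 ± 2.44 to 37.9 ± 2.76 CPM (1.09 ± 0.19, adjusted p = 0.0380), and it did not pass with upper-quartile scaling, with no filter on low counts, with all 16 libraries in 1 fit or in 7 of the 8 fits without 1 library, all but the one without C57 uninjured replicate 4. The 6 endothelium markers summed to 16 to 78.1 CPM in uninjured and 92.5 to 151 CPM in injured C57 tendon, and their part in the rise of Eng was not tested.

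The 11 target genes include Smad6 and Smad7, which were also counted among the SMAD genes, and leave out Bambi. Of these 11 target genes, 4 fell in MRL after injury, beside 2.15% of all genes tested, and none rose. The 5 bone markers summed to 78.9 to 230 CPM in uninjured and 19.1 to 89.9 CPM in injured MRL tendon, ranges that overlap. Sp7 was at 0 in each injured MRL library and also in MRL uninjured replicates 1, 3 and 4. The part of the bone markers in these falls was not tested. Msx1, a homeobox gene of limb mesenchyme, fell from 218 ± 80.1 to 54.1 ± 28.0 CPM (-2.01 ± 0.39, adjusted p = 0.0105). Atoh8, which encodes a basic helix-loop-helix factor, fell from 55.8 ± 16.6 to 19.5 ± 2.56 CPM (-1.51 ± 0.23, adjusted p = 0.00416). Dlx5, a homeobox gene of osteoblasts, and Id4 fell with log2 fold changes of -1.37 ± 0.25 (adjusted p = 0.00859) and -1.34 ± 0.25 (adjusted p = 0.00913). Each of these calls held without each library in turn, and those of Dlx5 and Id4 did not with all 16 libraries in 1 fit. In C57 these genes did not pass in edgeR, and their injured and uninjured libraries overlapped. Msx1 was at 242 ± 130 CPM without and 94.1 ± 19.8 CPM with injury in C57 (log2 difference -1.41 ± 0.48, adjusted p = 0.221), and passed without the libraries that stood apart (-1.56, adjusted p = 0.000803). Dlx5 was at 31.5 ± 25.3 and 6.82 ± 7.04 CPM (-2.26 ± 0.76, adjusted p = 0.214) and passed in DESeq2 (adjusted p = 0.0444), but its log2 difference was -1.28 (adjusted p = 0.318) without the libraries that stood apart and -3.27 (adjusted p = 0.107) without BI-185. Atoh8 was at 40.7 ± 18.4 and 22.6 ± 8.34 CPM (-0.90 ± 0.41, adjusted p = 0.346), and Id4 at 20.1 ± 3.23 and 17.5 ± 12.3 CPM (-0.24 ± 0.49, adjusted p = 0.871). The widely used readouts Id1, Id2 and Id3, which encode inhibitors of basic helix-loop-helix factors, did not pass in either strain. In MRL their log2 differences were -0.66 ± 0.23 (adjusted p = 0.0901), 0.08 ± 0.26 (adjusted p = 0.879) and -0.71 ± 0.22 (adjusted p = 0.0674). In C57 they were -0.99 ± 0.24 (adjusted p = 0.0998), -0.58 ± 0.19 (adjusted p = 0.200) and -0.61 ± 0.27 (adjusted p = 0.318). None of the 59 genes passed in the interaction test or between the strains without injury, where Gdf10 passed without both uninjured replicates 4 (1.76, higher in MRL, adjusted p = 0.00392).

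**Figure D4:**
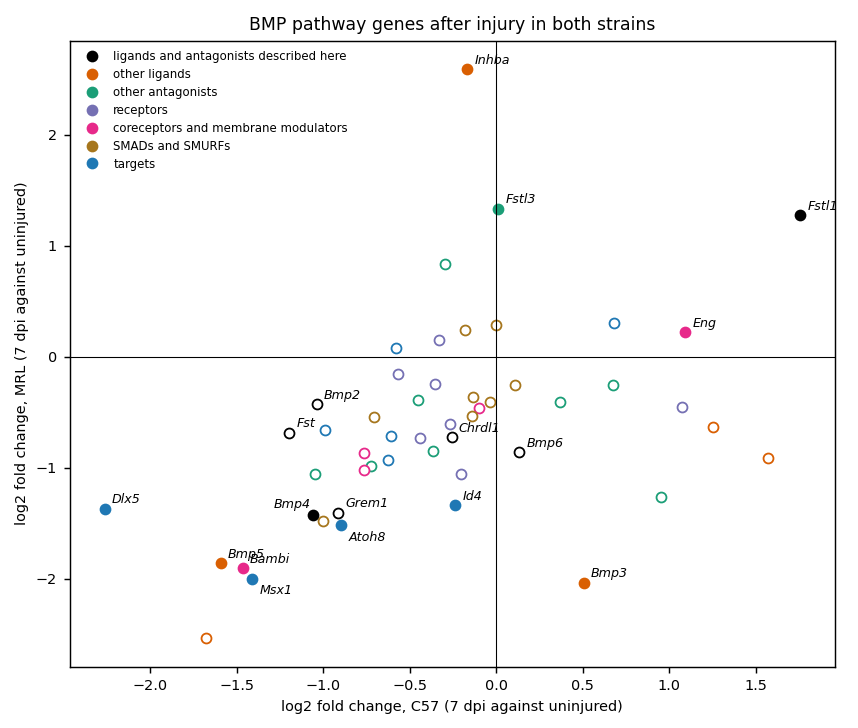
Log2 fold change after injury in C57 (x axis) against that in MRL (y axis) for the 51 BMP ligands, antagonists and other pathway genes tested in both strains. Filled points passed the test in at least 1 strain, and Grem1 was given no test. Bambi, Msx1, Bmp5 and Dlx5 lie below 0 on both axes, Inhba and Fstl3 are high on the MRL axis and near 0 on the C57 axis, and Fstl1 and Eng are the filled points farthest to the right.

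For each gene the 3 genes whose log2 CPM followed it most closely over the 16 libraries were found, as a description only, since the libraries share strain, injury and the epidermal share of C57 uninjured replicate 4. Grem1 was followed by Frzb (Pearson's r = 0.95, Spearman's rho = 0.98), a secreted Wnt antagonist, and by Gabbr1 (r = 0.91) and Enpp2 (r = 0.91). Without the 2 libraries farthest from the median of Grem1, r was 0.94 for Frzb. Fstl1 was followed by Fbn1 (r = 0.98, rho = 0.98), which encodes the microfibril protein fibrillin 1, by Rgs10 (r = 0.94) and by Trem2 (r = 0.94), a receptor of macrophages. Bmp4 was followed by Amy1, Srebf1 and Neat1 (r = 0.93 to 0.94) and Bmp2 by Atp6v0e, Dync1i1 and Trpc1 (r = 0.89 to 0.92). The closest genes to Fst were Gm45357, Herpud1 and Gm16126 (r = 0.89 to 0.91), those to Chrdl1 were Ptrf, Loxl4 and Tmco3 (r = 0.84 to 0.88), those to Bmp6 were C4b, Fgf2os and Ang (r = 0.87 to 0.88) and those to Gdf5 were A930003O13Rik, Adam3 and Smim24 (r = 0.78 to 0.88).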

How the data were processed

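RNA-seq libraries came from 4 tendons per group, from separate mice per the study's methods. Reads (single-end, 100 nt) were trimmed by the authors in Trimmomatic 0.36 and aligned to GRCm38.p5 by STAR 2.5.2b, per the labels and methods. The deposited values are whole-number counts per gene symbol, neither normalized nor filtered, for which the labels name featureCounts (Subread 1.5.0p3). Which annotation was counted, and whether by strand, is not given in the sources used here, so overlapping genes on opposite strands are uncertain. The labels name TruSeq libraries from 100 ng of RNA, the methods SMARTer pre-amplification of 1 ng. No molecular identifiers are named, so counting error is a lower limit.

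Counts that passed filterByExpr of edgeR were scaled by TMM and tested with the robust quasi-likelihood test of edgeR 4.0.16 (R 4.3.3), 8 libraries per comparison, with Benjamini-Hochberg adjustment over all genes tested. A gene passed with a log2 fold change over 1 in size at an adjusted p under 0.05, and the interaction, over 16 libraries, at the adjusted p alone. DESeq2 1.42.0, other scalings and filters, a fit of all libraries, leaving out libraries and a replicate block were alternatives. CPM are on TMM-adjusted sizes, log2 CPM used a prior count of 2, and exon lengths and coordinates came from GENCODE M21 (GRCm38). The floor was 3 counts per library. The scripts were tested on simulated counts. All genes of interest were looked at in every comparison where they had enough counts, and not every fold change is given. Other pathway genes were named where they passed in any comparison, and Id1 to Id3 always. Gdf10, Inhbb, Smad6, Rgma, Chrd and Sostdc1, which passed under alternatives alone, were named after their values were seen. Genes and lists were chosen with earlier results of these data known.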

Additional observations from a re-analysis of the deposited data

Results flagged for a closer look

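Of 36 groups of 4 libraries looked at (9 genes in 4 groups), 3 held a library far from the other 3 by Dixon's test. By chance alone it flags about 5% of groups, a rate that does not hold for the Nog groups, where 3 libraries at 0 make any count stand out. Bmp4 in C57 uninjured replicate 4 was at 27.9 CPM, against 79.8 to 86.2 CPM in the other uninjured C57 libraries. That library also had 7.49% of its counts on epidermis markers, and the part of these in its Bmp4 level was not tested. Nog stood at 0.202 CPM (3 counts) in C57 uninjured replicate 1 and at 0.777 CPM (13 counts) in MRL uninjured replicate 3, with 0 counts in the other 3 libraries of each group. No difference between the injury responses of the strains was flagged for these genes.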

How the results depend on the processing

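Alternatives were run for each fold change of the 8 genes that could be fitted (all but Nog) and for the counts of calls. Of 300 fold changes under another test, scaling, filter, spread or library set, 283 kept their direction and their side of the threshold or, for Grem1 where it had no test, moved by less than the spread between libraries, as did 346 of 368 when 1 library was left out. Genes called by DESeq2 numbered 905 in place of 155 for injury in C57, 1818 in place of 1057 in MRL, 1488 in place of 502 between injured tendons, 101 in place of 0 between uninjured tendons and 212 in place of 0 for the interaction. Of the 9 genes, DESeq2 called 2 in place of 0 in C57 and 1 in place of 0 between injured tendons. Scaling by total counts gave 183 genes higher and 373 lower in injured MRL than in injured C57 tendon, beside 227 and 275 with TMM, and moved the median log2 difference of all genes there from -0.06 to -0.20, in C57 after injury from -0.05 to 0.08 and in the interaction from -0.03 to -0.14. With at least 10 counts in every library, 269 genes passed in C57 and 1 between uninjured tendons, where no filter also gave 1. With all 16 libraries in 1 fit, 367 genes passed in C57 and 227 between injured tendons, and of the 9 genes 1 passed in C57, 1 in MRL in place of 2 and 1 between injured tendons. Without the 3 libraries that stood apart, 867 genes passed in C57 and 497 between uninjured tendons, and of the 9 genes 3 in C57, 1 in MRL and 1 between uninjured tendons. Leaving out 1 library gave 10 to 750 genes in C57, 689 to 1260 in MRL, 231 to 481 between injured tendons, 0 to 3 between uninjured tendons and 0 for the interaction. Of the 9 genes it gave 0 to 3 in C57, 1 to 2 in MRL and 0 to 1 between injured tendons. The highest in C57, 750 genes and 3 of the 9, came without C57 uninjured replicate 4, and the lowest, 10 genes, without C57 uninjured replicate 3.

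Reversals were confined to fold changes that passed under no setting tried. Without the libraries that stood apart, Gdf5 went to 0.80 for injury in MRL and to -0.096 between injured tendons, Fst to -0.26 between uninjured tendons and Bmp4 to 0.010 for the interaction. Fst also went to -0.045 with total counts. Leaving out 1 library reversed Bmp6 in C57 (range -0.039 to 0.30), Chrdl1 between injured tendons (-0.087 to 0.67), Fst (-0.21 to 0.13) and Fstl1 (-0.39 to 0.12) between uninjured tendons, and Gdf5 in MRL (-1.24 to 0.80) and between injured tendons (-0.71 to 0.65). The replicate block reversed Fstl1 between uninjured tendons (0.10) and left 0 genes called. Deviations of same-numbered uninjured libraries from their group means had correlations of -0.26, 0.02, -0.10 and -0.23, so they share only a number. The injured libraries carry no number to pair. The causes of these changes were not tested. Nog and Gdf5 had 0 counts in several libraries, which limits what can be said of their levels and, for Gdf5, of its fold changes.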
